A study of Aspergillus nidulans with 7 samples.

Results

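Of the 10639 genes measured while Aspergillus nidulans formed its asexual spores, 20 (0.188%) stood at 2 times their mean level of 6 to 24 h, or more, both at the start and at the end of the course. They were chosen by level. CPM (a gene's counts divided by the summed counts of its library, times 1000000) had to be 10 or more at 0 h and at 48 h, and the lower of these ends had to be at least 2 times the mean of 6, 12, 18 and 24 h. Taken alone, the condition at 48 h was met by 1787 genes (16.8% of all), of which the 20 genes are 1.12%. The condition at 0 h was met by 349 genes (3.28% of all), of which they are 5.73%. Levels at the 6 times named therefore chose the genes and are given as a description, without a test. The 30 h library and the order of the times in air were not used by the rule.

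The samples were 7 mRNA sequencing libraries of the wild-type strain FGSC A4, 1 at each of 7 times: 0, 6, 12, 18, 24 and 30 h, and lastly 48 h. Where 7 values of a gene follow each other, they are in this order. At 0 h the mycelium came straight from an aerated submerged culture in minimal medium. At the other times it had been kept on moist filters in air under constant light. All groups share strain and medium. The growth protocol mentions duplicate filters at each time, with no word on whether they were pooled, and no time has a replicate library. Intervals below are exact 95% limits that cover counting error only, since reads are not independent molecules.

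In air, hyphae of this fungus raise stalks with a vesicle at the tip, on which metulae and phialides form and bud off chains of conidia. The process is driven by the transcription factor BrlA. Only 2 of the 20 genes have a symbol in the reference, and both are tied to zinc. Zinc enters fungal cells through membrane transporters of the ZIP family, and in Aspergillus fumigatus zrfC encodes such a transporter that serves in alkaline, zinc-poor surroundings. There, aspf2 encodes a secreted protein, known as an allergen, and is transcribed divergently from zrfC out of a shared intergenic region. The other 18 genes carry no name in the files or the reference and are described by identifier.

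Library totals ran from 4186063 to 9899347 counts, and the lowest count of any of the 20 genes in any library was 11. The scale matters for this pattern. The 100 most abundant genes held 20.8% of counts at 48 h, against 45.3% at 0 h, and the trimmed mean of M values (TMM) factor, which scales to the bulk of genes, was 1.38 at 48 h, against 0.464 at 0 h. Levels below are by totals unless TMM is named. With TMM scaling 13 of the 20 genes still met the rule, and 56 genes in all did. Among markers of the conidiophore, brlA stood at 484 CPM at 48 h, against 0.431 CPM at 0 h. rodA, the hydrophobin of the spore surface, stood at 10546 CPM at 48 h and had no count at 0 h, which allows up to 0.431 CPM.

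Together the 20 genes took 0.355% of all counts at 0 h, 0.0904% at 6 h, 0.0885% at 12 h, 0.1004% at 18 h, 0.109% at 24 h, 0.183% at 30 h and 0.369% at 48 h. The sums at the ends lean on single genes. AN4423 gave 1165 of the 3551 CPM at 0 h, and AN8915 gave the most at 48 h, 1226 CPM. With the TMM factors above, the 48 h sum would stand lower against that at 0 h. In each of the 20 genes all 4 libraries from 6 to 24 h lay below both ends, whereas with TMM scaling zrfC was higher at 6 h than at 48 h. In 8 of them both ends were at least 2 times even the highest of these 4. The lower end was 2.01 to 5.15 times the mean of 6 to 24 h (the middle), with a median of 2.604. In bulk samples fewer cells of a type and less RNA per cell cannot be told apart.

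**Figure D1:**
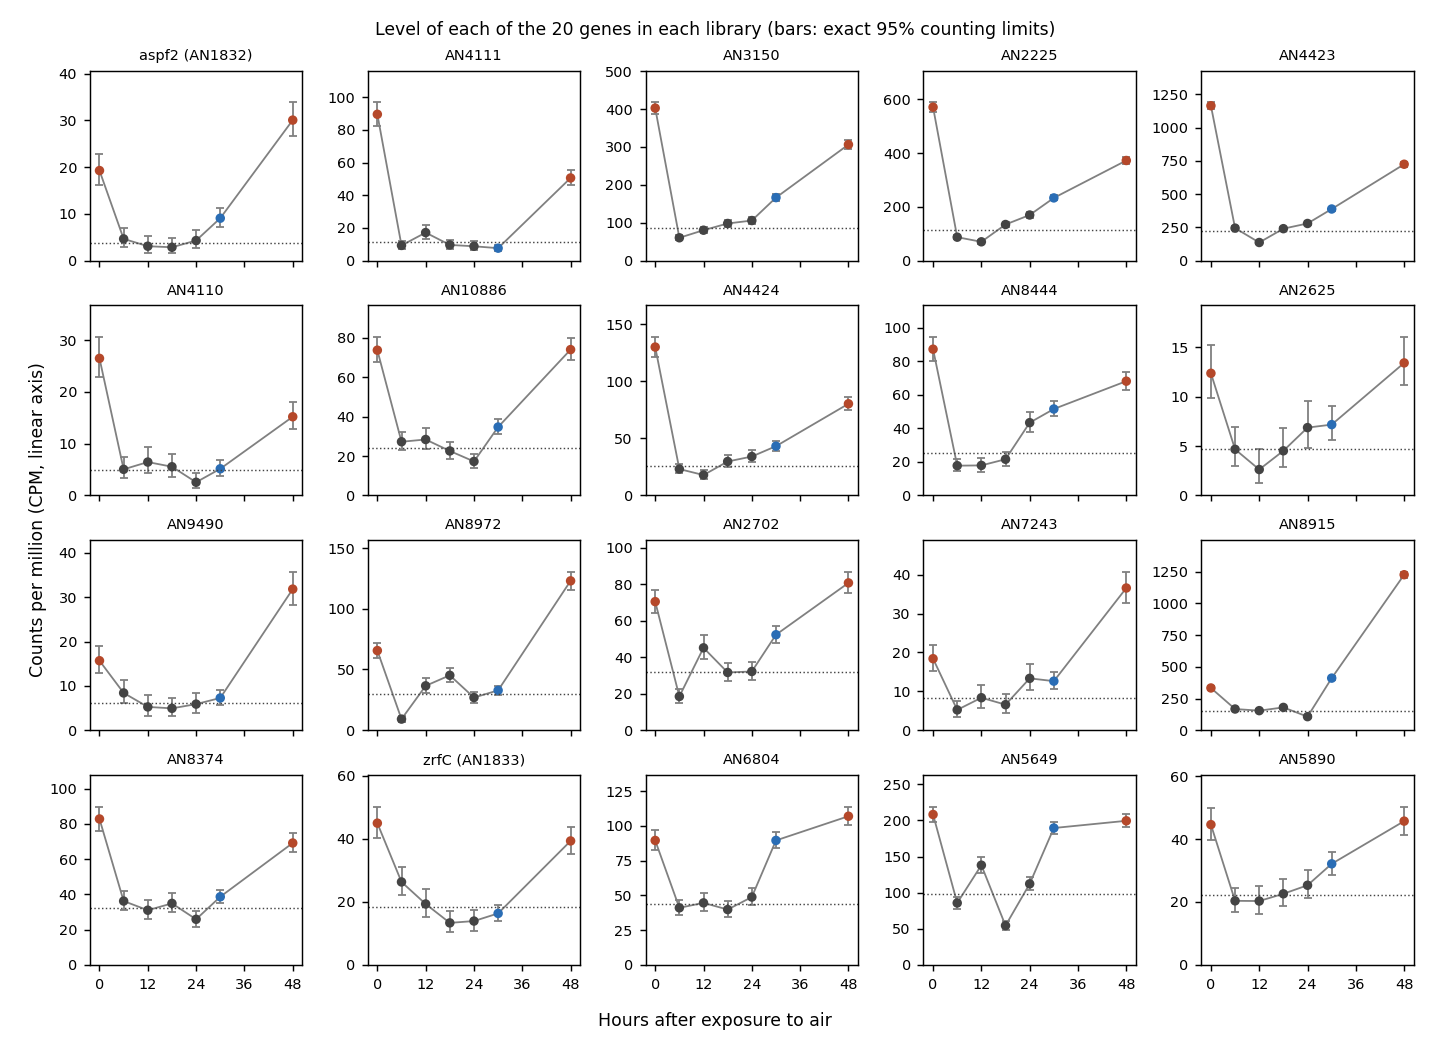
CPM (linear axis, from 0) of each of the 20 genes against hours after exposure to air, with exact 95% counting limits; red points are 0 and 48 h, dark points 6 to 24 h, blue points 30 h, and the dotted line is the mean of 6 to 24 h. By totals every gene is lower from 6 to 24 h than at either end, and the blue point lies below the 48 h point in all 20; with TMM scaling this fails for zrfC (6 h) and AN5649 (30 h).

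The largest fold belonged to aspf2 (AN1832; contig 29, 96948 to 97878), which stood at 19.3, 4.67, 3.11, 2.88, 4.32, 9.09 and 30.1 CPM over the 7 times. These values rest on 134, 25, 13, 14, 22, 90 and 271 counts over the 7 times. The lower end, 0 h, was 5.15 times the middle, and with the middle libraries pooled the counting interval of that fold was 3.79 to 6.84. Its lowest library was that at 18 h, and its level at 48 h was 1.56 (counting interval 1.26 to 1.93) times that at 0 h, but 0.524 times with TMM scaling. zrfC (AN1833; contig 29, 98456 to 99971) is the next gene on the contig, with 577 bases between them. Its levels were 45.01, 26.3, 19.4, 13.4, 13.9, 16.4 and 39.4 CPM over the 7 times, so it too was lowest at 18 h, although with TMM scaling its lowest library was that at 24 h. These lows were not set apart by counting. The interval of aspf2 was 1.57 to 4.83 CPM at 18 h and 1.65 to 5.31 CPM at 12 h. That of zrfC was 10.3 to 17.0 CPM at 18 h and 10.9 to 17.6 CPM at 24 h. The fold of zrfC was smaller, at 2.16 (pooled interval 1.85 to 2.49). By totals its 48 h level was 0.875 (counting interval 0.749 to 1.02) times the 0 h level, an interval that includes equal levels. That ratio was 0.294 with TMM scaling. With TMM scaling the lower end of aspf2 was 5.99 times the middle, while zrfC, at 1.57, no longer met the rule.

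The neighbours did not keep one ratio. Per length, in RPKM (CPM per kilobase of the gene model), zrfC over aspf2 was 1.41, 3.42, 3.77, 2.81, 1.95, 1.09 and 0.793 over the 7 times. With its counting interval it was 1.41 (1.15 to 1.75) at 0 h, 3.77 (2.09 to 7.39) at 12 h and 0.793 (0.675 to 0.933) at 48 h, and these 3 intervals do not overlap. zrfC was thus the more abundant transcript of the pair per length up to 24 h, and aspf2 was the more abundant at 48 h. At 30 h the interval of the ratio, 1.09 (0.837 to 1.43), included equal levels. AN1831, the gene beside aspf2, also dipped between the ends, at a low level, with 2.88, 0.934, 1.67, 1.03, 2.55, 6.36 and 31.3 CPM over the 7 times. Its lower end, 0 h, rested on 20 counts and lay under the floor of 10 CPM on either scale. That end was 1.86 times the middle by totals (pooled interval 1.01 to 3.402) and 4.34 times with TMM scaling, above the fold of zrfC on that scale. AN1834, beside zrfC, stood at 29.4 CPM at 48 h, against 8.48 CPM at 0 h, and its lower end was 0.588 times the middle by totals and 1.31 times with TMM scaling.

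The reference holds 3 more zrf symbols, and this list of 5 zinc genes was drawn up after their values were seen. None of the 3 met the rule, by totals or with TMM scaling. zrfA (AN8337), a plasma membrane zinc transporter gene that in A. fumigatus serves in acidic, zinc-poor medium, stood at 1989.6, 727, 300.2, 363, 255, 222 and 35.6 RPKM over the 7 times. It was highest in the submerged culture and lowest at 48 h, and of the 5 genes it alone passed the test of a slope over 6 to 30 h described below, with a fitted log2 change of -2.05 ± 0.42 (SE, 5 libraries; edgeR adjusted p = 0.0223). zrfB (AN3799), which has the same role there, stood at 136, 122, 199, 268, 317, 368 and 377 RPKM over the 7 times, lowest at 6 h and highest at 48 h, although with TMM scaling its highest level was at 0 h. zrfD (AN10468) stood at 6.899, 11.4, 10.5, 3.94, 7.53, 7.95 and 15.9 RPKM over the 7 times. With TMM scaling the lower ends of zrfB and zrfD were 1.299 and 1.398 times the middle, not far below the 1.57 times of zrfC. Per length, zrfC and aspf2 were far below zrfA at 0 h, with 32.7 RPKM for zrfC and 23.1 RPKM for aspf2, against 1989.6 RPKM for zrfA. At 48 h zrfC stood at 28.6 RPKM and aspf2 at 36.03 RPKM, beside 35.6 RPKM for zrfA.

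**Figure D2:**
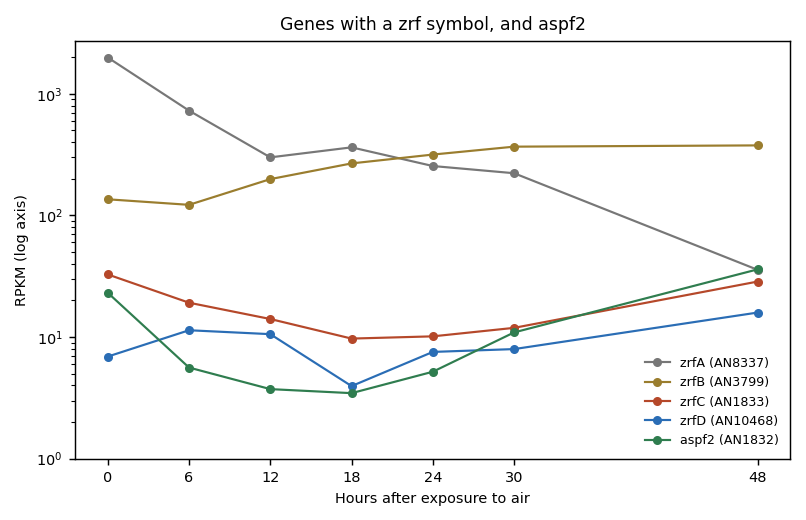
RPKM (log axis) of the 5 genes with a zrf symbol or named aspf2, by hours after exposure to air, 1 library per time. zrfC and aspf2 dip between the ends. Both are lowest at 18 h (zrfC at 24 h with TMM scaling), with counting intervals that overlap those of another middle time. zrfA is highest at 0 h and lowest at 48 h, and zrfB is highest at 48 h (at 0 h with TMM scaling).

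A second pair of neighbours was AN4110 and AN4111 on contig 65, 531 bases apart (66194 to 67852 and 68384 to 69644). AN4111 stood at 89.4, 9.34, 17.2, 9.66, 8.83, 7.68 and 50.6 CPM over the 7 times. Its 6 h level was the lowest against 0 h among the 20 genes, at 0.104 times the 0 h level (counting interval 0.0767 to 0.139). AN4111 was also the one gene whose 30 h level lay below all of 6 to 24 h, and its 48 h level was 6.59 times that at 30 h (5.16 to 8.51). AN4110 stood at 26.5, 5.05, 6.45, 5.55, 2.55, 5.15 and 15.2 CPM over the 7 times, lowest at 24 h like its neighbour within the middle times. In both genes the counting interval at 24 h overlapped that at 6 h. At 48 h both were at a similar fraction of their 0 h level, 0.565 (counting interval 0.4999 to 0.639) for AN4111 and 0.574 (counting interval 0.457 to 0.7202) for AN4110. Per length, AN4111 over AN4110 was 4.36 (3.695 to 5.17) at 0 h, 1.92 (1.33 to 2.799) at 30 h, its lowest, and 4.296 (3.54 to 5.24) at 48 h. Of the genes that flank the pair, AN4109 stood at 22.1 CPM at 48 h, against 2.01 CPM at 0 h. Its lower end was 1.003 times the middle by totals and 2.26 times with TMM scaling, on 14 counts at 0 h. AN4112 stood at 85.7 CPM at 48 h, against 348 CPM at 0 h, and its lower end was below the middle on either scale.

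AN4423 and AN4424 lie on different contigs of the deposited table (contig 74, 152209 to 153085, and contig 75, 1711 to 3345) but follow each other in the order of the ASM1142v1 reference. AN4423 was the most abundant of the 20 genes at the lower end, with 1165, 245, 137, 241, 280.1, 389 and 725 CPM over the 7 times. AN4424 stood at 130.1, 23.2, 17.9, 29.8, 34.1, 43.2 and 80.4 CPM over the 7 times. Both were lowest at 12 h, and their 48 h levels were 0.623 and 0.618 times those at 0 h. Unlike the zinc pair, they kept nearly the same proportion throughout. The RPKM ratio of AN4423 over AN4424 was 17.7, 20.9, 15.1, 15.95, 16.2, 17.7 and 17.8 over the 7 times, from 15.1 (11.8 to 19.5) at 12 h to 20.9 (17.3 to 25.3) at 6 h, and the counting intervals of all 7 libraries include values between 17.3 and 18.9. Neither AN4422 nor AN4425, on their other sides, met the condition at 0 h.

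In all, 4 of the 20 genes had another of them as the next gene on the contig, the same 4 within 3 genes, and 6 of the 20 did in the order of the reference. For comparison, 0.188% of all genes belong to the group. The 20 genes were spread over 18 of the 226 contigs. No source used here states whether reads were assigned by strand, so reads reaching from one gene into its neighbour cannot be told apart.

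**Figure D3:**
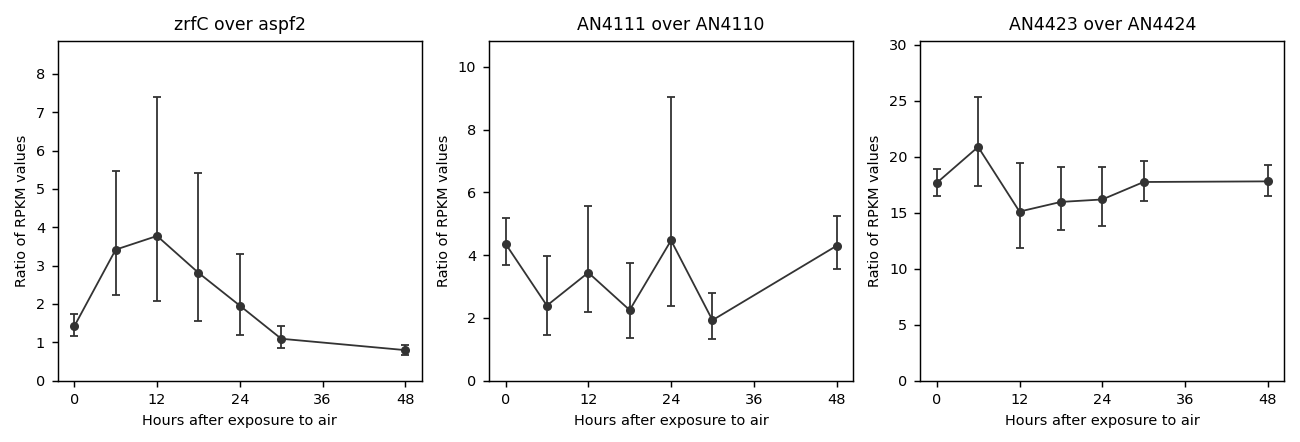
Ratio of RPKM values (linear axis, from 0) within the 3 neighbouring pairs, by hours after exposure to air, with exact 95% counting limits. zrfC over aspf2 runs from 3.77 at 12 h to 0.793 at 48 h, while AN4423 over AN4424 stays between 15.1 and 20.9.

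Besides AN4423, the most abundant genes of the group were AN2225, AN8915 and AN3150. AN2225 (contig 34, 9491 to 10630) stood at 571, 87.6, 70.5, 135, 170.2, 234 and 373 CPM over the 7 times. AN3150 (contig 49, 1039748 to 1042079) stood at 402, 60.5, 80.5, 98.2, 106, 166 and 306 CPM over the 7 times. After its lowest library, at 12 h for AN2225 and at 6 h for AN3150, each was higher in every later library than in the one before (with TMM scaling AN3150 was lower at 24 h than at 18 h), and neither reached its 0 h level at 48 h. The 48 h level was 0.653 (counting interval 0.623 to 0.684) times the 0 h level for AN2225 and 0.761 (counting interval 0.722 to 0.802) times for AN3150. AN8915 (contig 161, 147952 to 150021) had another balance. Its levels were 333, 167, 154, 179.8, 107, 411 and 1226 CPM over the 7 times, with the lowest at 24 h. By totals its 48 h level was 3.68 (counting interval 3.52 to 3.85) times the 0 h level, the largest such ratio among the 20. With TMM scaling the ratio was 1.24. Its lower end, 0 h, was 2.19 times the middle by totals, near the threshold on that side, but 4.84 times with TMM scaling.

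The balance between the ends differed among the genes. The 48 h level was the higher in 10 of the 20 genes and the 0 h level in the other 10, with a median ratio of 48 h over 0 h of 0.981. Over the 4764 genes with 10 CPM or more at both ends the median was 2.15. Those genes were not chosen for a 0 h level well above the middle, as the 20 were. These medians are therefore a description, and the difference between them is shaped by the choice of genes. The counting interval lay above equal levels for 7 genes, below them for 8, and included them for 5. The smallest ratios were those of AN4111, AN4110, AN4424 and AN4423, given above, and that of AN2225. After AN8915 the largest ratios were those of AN9490, AN7243, AN8972 and aspf2. AN9490 stood at 15.7, 8.41, 5.26, 4.93, 5.89, 7.27 and 31.8 CPM over the 7 times. AN7243 stood at 18.4, 5.23, 8.36, 6.58, 13.3, 12.6 and 36.6 CPM over the 7 times. AN8972 stood at 65.6, 9.16, 36.5, 45.2, 26.9, 32.8 and 123 CPM over the 7 times, with its lowest library at 6 h. These 3 genes stood at 48 h at 2.898 to 4.38 times their 30 h levels. With TMM scaling the median ratio of 48 h over 0 h was 0.329, and AN8915 was then the one gene of the 20 with 48 h above 0 h.

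**Figure D4:**
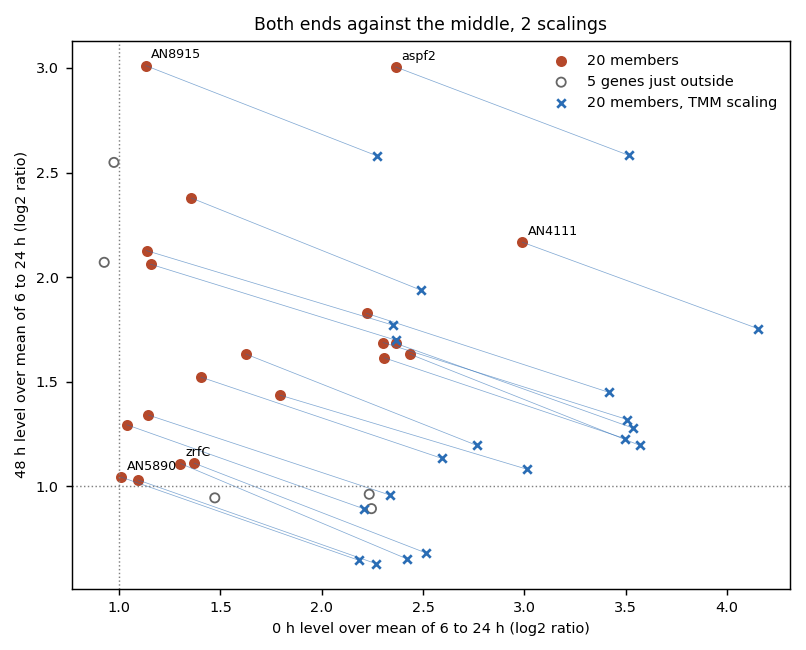
For each gene, the 0 h level (x axis) and the 48 h level (y axis) over the mean of 6 to 24 h, as log2 ratios; dotted lines mark the fold of 2. Filled points are the 20 genes by totals, crosses the same genes with TMM scaling, joined by lines, and open circles the 5 genes just outside the rule. TMM scaling moves every gene right and down, and 6 of the 20 crosses lie under the line for 48 h.

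In the remaining 8 genes the 48 h levels were 0.781 to 1.19 times those at 0 h. AN10886 stood at 73.8, 27.3, 28.4, 22.6, 17.3, 34.8 and 74.1 CPM over the 7 times. Its 48 h level was 1.004 (counting interval 0.894 to 1.13) times that at 0 h by totals, and 0.337 times with TMM scaling. AN8444 stood at 87.1, 17.8, 17.9, 21.6, 43.4, 51.5 and 68.1 CPM over the 7 times, low from 6 to 18 h and higher from 24 h on. AN5649, the gene with the longest model of the 20 (5163 nucleotides), was uneven in the middle, with 208, 85.8, 138, 54.5, 112, 189.5 and 199 CPM over the 7 times. AN6804 stood at 89.6, 41.1, 44.7, 39.9, 48.9, 89.6 and 107 CPM over the 7 times. By totals it varied least from 6 to 24 h, by 1.23 times between the highest and the lowest library, while AN8972 varied most, by 4.94 times. With TMM scaling AN5890 varied less, from 19.5 to 23.2 CPM, beside 37.2 to 46.9 CPM for AN6804. AN2625, the least abundant at its lower end, stood at 12.4, 4.67, 2.63, 4.52, 6.87, 7.17 and 13.4 CPM over the 7 times, from 11 to 121 counts. AN2702 stood at 70.5, 18.5, 45.1, 31.6, 32.2, 52.3 and 80.7 CPM over the 7 times. AN8374 stood at 82.8, 36.3, 31.1, 34.9, 25.9, 38.7 and 69.2 CPM over the 7 times. By totals both had a 30 h level above all of 6 to 24 h, and with TMM scaling neither did. AN5890 stood at 44.6, 20.4, 20.3, 22.6, 25.3, 32.1 and 45.7 CPM over the 7 times. The lowest of the 4 libraries from 6 to 24 h was that at 6 h for 5 genes, at 12 h for 5, at 18 h for 5 and at 24 h for 5, so the group has no shared time of lowest level. With TMM scaling these numbers were 4, 6, 4 and 6. Some lows were not set apart by counting, as in AN5890, with 16.2 to 25.1 CPM at 12 h and 16.7 to 24.6 CPM at 6 h. In AN8972 (6 h), AN4423 (12 h), AN5649 (18 h) and AN8915 (24 h) the counting interval of the low overlapped no other middle time.

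The rule did not use the 30 h library, but it did require low levels from 6 to 24 h, so any ratio of 30 h to these times is raised by the choice of genes and is given as a description. By totals the 30 h level lay below that at 48 h in all 20 genes, and with TMM scaling in all but AN5649. It lay above all of 6 to 24 h but below the lower end in 12 genes, within the range of 6 to 24 h in 5, below that range in AN4111, and at or above the lower end in 2, AN8915 and AN6804. With TMM scaling it lay between in 9 genes, within the range in 9, below it in AN4111, and at or above the lower end in AN5649 alone, while AN8915 and AN6804 lay under theirs. The median of 30 h over the mean of 6 to 24 h was 1.59, against 1.09 over the 4764 genes with 10 CPM or more at both ends. A 30 h level at least 2 times the mean of 6 to 24 h was found in 5 of the 20 genes (25%), beside 2.69% of those 4764 genes, which were not chosen for a low middle. These were AN8915 at 2.701 times, aspf2 at 2.43, AN6804 at 2.05, AN8444 at 2.05 and AN2225 at 2.02. With TMM scaling 1 of the 20 genes reached 2 times, beside 1.13% of the 4764 genes, and the median was 1.29, against 0.872 over those genes. These values have no replicate check, and the 30 h library is the one next in time to the 48 h library that the rule used.

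Whether the genes rose or fell while in air was tested by the slope on hours from 6 to 30 h over 5 libraries, fitted to 9608 genes with edgeR's quasi-likelihood test after TMM scaling. None of the 20 genes passed at an adjusted p under 0.05, 0 rising and 0 falling, beside 4.25% of all genes that rose and 2.96% that fell. An unadjusted edgeR p under 0.05 was found for 5 of the 20 (25%), beside 26.9% of all genes, a share near the background. DESeq2 and limma-voom also called 0. The fitted change was positive in 14 genes and negative in 6, with a median of 0.45 log2 units over the 20 and of 0.095 over all genes tested. The balance of signs rested on the 30 h library. Without it the change was positive in 8 genes and negative in 12, with medians of -0.16 over the 20 and 0.06 over all genes. By totals the medians were 0.94 over the 20 and 0.60 over all genes. The 4 libraries from 6 to 24 h in this fit were also used by the rule, which required a low mean of them. That choice can raise the 30 h end of the fit against the others. The signs and medians of the 20 genes are therefore a description. The steepest positive change was that of AN8444, 1.23 ± 0.36 (SE, 5 libraries; edgeR adjusted p = 0.0662). Next came AN2225, with 1.08 ± 0.37 (SE, 5 libraries; edgeR adjusted p = 0.105), and AN3150, with 0.83 ± 0.30 (SE, 5 libraries; edgeR adjusted p = 0.117). The steepest negative change was that of zrfC, -1.23 ± 0.38 (SE, 5 libraries; edgeR adjusted p = 0.0771), followed by AN4111, with -1.19 ± 0.50 (SE, 5 libraries; edgeR adjusted p = 0.165). aspf2, the neighbour of zrfC, had a change of 0.54 ± 0.63 (SE, 5 libraries; edgeR adjusted p = 0.6101). Scaled by totals alone, AN8444, AN2225 and AN3150 passed (edgeR adjusted p = 0.0204, 0.0281 and 0.0266), beside 11.8% of all genes that rose on that scale and 1.2% that fell. AN8444 also passed with upper quartile factors (edgeR adjusted p = 0.0478), beside 435 of the 9608 genes that rose with these factors.

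**Figure D5:**
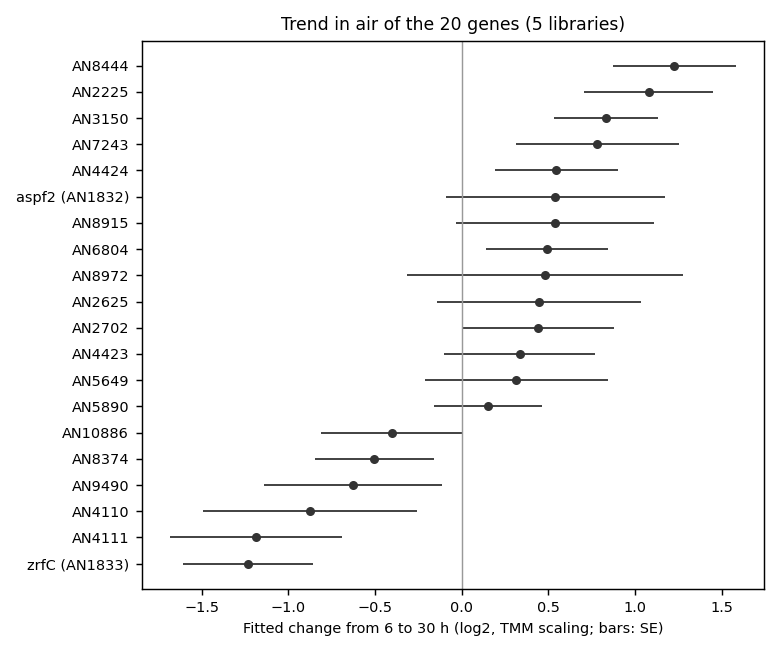
Fitted change from 6 to 30 h in log2 units (x axis, TMM scaling) for each of the 20 genes, with standard errors, from 5 libraries. The changes run from -1.23 for zrfC to 1.23 for AN8444, and none passed the edgeR test over all genes.

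The threshold cut through a graded set. Just inside it were AN5890, AN5649, AN6804, zrfC and AN8374, whose lower ends were 2.01, 2.04, 2.05, 2.16 and 2.16 times the middle. Just outside were aguA, AN10314, AN3245, AN10862 and AN1231, at 1.96, 1.95, 1.93, 1.900 and 1.86 times. aguA (AN9286), which by its symbol encodes an alpha-glucuronidase that acts on plant xylan, stood at 12.5, 3.36, 8.12, 5.55, 8.44, 22.3 and 37.3 CPM over the 7 times. The lower counting limit of the pooled fold was 2 or more for 12 of the 20 genes, which describes counting precision only, since the rule itself required a fold of 2. The fixed pathway lists held none of the 20 genes. They covered 117 genes for sterigmatocystin, austinol, synthase backbones, use of proline, ethanol, acetate, nitrate and aromatic amino acids, iron uptake, autolysis and hydrophobins. The group makes up 0.188% of all genes, so holding none of these 117 is near that share. The condition at 48 h alone was met by 20 of 21 austinol genes and all 6 hydrophobin genes, beside 16.8% of all genes. It was also met by 5 of 6 genes of ethanol use, 4 of 5 of autolysis and 10 of 21 of sterigmatocystin. For synthase backbones it was 10 of 34, and for iron 2 of 7. Of the proline genes 1 of 5 met it, and of the acetate and glyoxylate genes 1 of 6. For aromatic amino acids and nitrate it was 0 of 5 and 0 of 3. Fewer genes of the lists met the condition at 0 h alone, beside 3.28% of all genes. These were 5 of 34 synthase backbones, 3 of 6 genes of acetate and glyoxylate use, 1 of 3 nitrate genes and 1 of 21 sterigmatocystin genes.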

How the data were processed

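The deposited counts are raw whole numbers per gene and library. RPKM values deposited by the authors equal CPM by the same column's total, per kilobase of gene model. They were used to compare levels between genes and to give the courses of the zrf genes and aspf2 side by side. Model lengths came from the deposited signal, which is reads per nucleotide. The submitters' processing notes name CASAVA, with no version or role. No source used here gives the aligner, build, annotation or strand setting. Positions are those of the deposited table.

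The rule used CPM by column totals. Named were genes with a symbol, those with the highest lower end, fold or end ratio, those near the threshold, neighbours and members of fixed lists, which took in all 20. The members and the lists were chosen with earlier results of these data known. Symbols came from the ASM1142v1 table, which held 10455 of the 10639 identifiers and gave 778 a symbol. That table gave no product text or promoters, so the planned lists by product and the motif search were not run.

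The slope over 6 to 30 h was fitted with edgeR 4.0.16 (R 4.3.3, TMM, robust quasi-likelihood, Benjamini-Hochberg over all genes) on genes with 1 CPM or more in at least 1 library and 15 counts in all; the script was tested on simulated data. Fitted changes are slopes times 24 h. The SE is the change divided by the square root of F. With 1 library per time every departure from a line counts as error. DESeq2 1.42.0 and limma 3.58.1 gave alternatives, and other scalings, filters, floors, folds and left-out libraries were tried. Ratio intervals are exact conditional binomial (Clopper-Pearson) limits, and level intervals are exact Poisson limits; a count of 0 allows up to 3 counts. Pooled folds divide the lower end by the summed counts of 6 to 24 h over their summed totals. Python 3.11.15 with SciPy 1.17.1 and pandas 2.3.3 made the tables, and matplotlib 3.10.9 the plots.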

Additional observations from a re-analysis of the deposited data

How the results depend on the processing

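The number of genes that met the rule was 20 by totals, 56 with TMM factors, 49 with upper quartile factors and 64 with DESeq2 size factors, and 13, 15 and 13 of the 20 were among them. It was 8 with the highest of 6 to 24 h as the middle, 8 with a fold of 3, 75 with a fold of 1.5, and 12 with the lower counting limit of the fold at 2 or more. Without 1 of the 4 middle libraries it was 18 to 28, and 15 to 19 of the 20 remained. A middle that included 30 h, or a floor of 5 or 20 CPM, gave counts within 1.5 times of 20.

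Over 6 to 30 h, 1 of the 20 rose with upper quartile factors and 3 by totals; 0 fell under any setting run. Over all genes 408 rose and 284 fell. By totals 1129 rose and 115 fell, with DESeq2 624 and 661, and with upper quartile factors 435 and 160. Left-out libraries gave 141 to 357 rises and 56 to 267 falls, with 141 and 56 without 30 h, 194 and 147 without 12 h, 245 and 90 without 6 h, and 247 and 121 without 24 h. Of 200 recomputed slopes of the 20 genes 185 kept direction and side of the threshold and 11 turned sign, none of these called. Left-out libraries gave changes of -0.56 to 1.41 for aspf2, -0.072 to 1.101 for AN4423, -0.89 to 0.91 for AN8915, -0.23 to 0.72 for AN6804, -0.42 to 0.52 for AN5649 and -0.088 to 0.35 for AN5890, each lowest and negative without 30 h. They gave -0.93 to 0.22 for AN9490, -0.67 to 0.96 for AN8972 and -0.072 to 0.81 for AN2702, each of the other sign without 6 h. By totals the change was 0.094 for AN10886 and 0.00301 for AN8374. The median 30 h level over the middle was 1.29 with TMM factors and 1.36 with upper quartile factors, 1 and 2 genes reached 2 times, and the median of 48 h over 0 h was 0.329 and 0.386. The cause of these shifts was not tested. No paired analysis was possible because each time has 1 library and the labels carry no replicate numbers.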

Other observations

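With TMM scaling 43 further genes met the rule, 6 of them with a symbol, and these were looked up after the scaling was seen to matter. nudC (AN5181), a gene of the nuclear distribution pathway that moves nuclei along hyphae, stood at 73.8, 27.3, 29.3, 30.5, 30.4, 19.6 and 65.1 TMM-scaled CPM over the 7 times, lower from 6 to 30 h than at either end. luA (AN5886), which by its symbol acts in leucine synthesis, stood at 82.5, 52.2, 25.9, 24.5, 42.99, 72.7 and 100.3 TMM-scaled CPM over the 7 times. pst2 (AN0297) stood at 354, 52.00, 82.7, 274, 234, 339 and 367 TMM-scaled CPM over the 7 times, with its low levels at 6 and 12 h only. nfr1 (AN9103) stood at 210.2, 54.6, 62.8, 101, 119, 127 and 290.3 TMM-scaled CPM over the 7 times. gta1 (AN4809) stood at 38.8, 6.61, 15.3, 15.3, 23.02, 37.8 and 91.2 TMM-scaled CPM over the 7 times, and aguA (AN9286) at 26.98, 3.84, 7.79, 5.17, 6.92, 17.1 and 26.97 TMM-scaled CPM over the 7 times. AN7825, from the sterigmatocystin list, had low levels throughout, with 11.5, 1.28, 2.29, 2.49, 3.54, 5.11 and 17.2 TMM-scaled CPM over the 7 times, and its end at 0 h rested on 37 counts. By totals the lower ends of these 7 genes were 1.102, 1.01, 0.924, 1.07, 1.08, 1.96 and 2.03 times the middle, in the order named, and that of AN7825 lay under 10 CPM. AN8982, from the ethanol list, also met the rule with TMM scaling. It stood at 141.4, 46.5, 49.5, 67.4, 40.7, 111.2 and 193.5 TMM-scaled CPM over the 7 times, with 456 counts at 0 h. Its lower end was 2.77 times the middle with TMM scaling and 1.22 times by totals.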
